A study of Mus musculus with 6 samples.

Results

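The genes described here are 47 genes of mitosis and cytokinesis, the steps in which a cell separates its copied chromosomes and then divides. They were taken by name from a list spanning mitotic entry, the spindle checkpoint, the kinetochore, anaphase, chromosome structure, the spindle and cytokinesis. All 47 were found among the 25006 gene identifiers of the deposited count tables, after 24991 identifiers had been matched to GENCODE symbols, and all 47 passed the filter on low counts that left 14815 genes for testing. They were followed in RNA from the ventricles of mouse hearts at embryonic day 17.5. The 3 null libraries carried floxed Prox1 alleles together with a Cre that tamoxifen switches on and that the VE-cadherin promoter drives (VecadcreERT2; Prox1f/f), so it acts in endothelial cells in general. The 3 control libraries are labelled WT, with no Cre named, so Cre activity and loss of Prox1 cannot be told apart here. Per the protocol given for every sample, dams of the NMRI background received tamoxifen at E13.5 and E14.5, so the controls had been exposed to tamoxifen too. Whether the controls carried floxed alleles, and whether each library came from a separate embryo or from pooled hearts, is not given in the sources used here, so p-values measure the spread between these libraries.

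Ventricles of the late mouse embryo still grow partly by division of cardiomyocytes, endothelial cells and fibroblasts. A cell enters mitosis when cyclin B activates the kinase Cdk1. The spindle checkpoint then holds the cell until every chromosome is attached, the anaphase-promoting complex releases the sister chromatids, and the central spindle and a contractile ring divide the cytoplasm. Many genes of this programme are transcribed in the late cell cycle and are kept low in resting cells. In whole tissue, fewer dividing cells and less RNA per dividing cell cannot be told apart.

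The libraries held between 35195544 and 44330594 counts. Prox1 itself was at 164, 159.8 and 168 CPM (counts scaled to library size, with factors from the trimmed mean of M-values, TMM) in null libraries, against 149, 143 and 149 CPM in control libraries, so counts over the whole gene were higher in null (adjusted p = 0.0331, edgeR's quasi-likelihood test) and a loss confined to endothelial cells cannot be read from them. Esr1 encodes an estrogen receptor, and the CreERT2 fusion holds part of such a receptor. Esr1 had 298, 244 and 290 counts in null libraries and 14, 9 and 19 counts in control libraries, the direction of the labels. Null 1 and null 3 held Y-linked RNA at 92.4% and 97.1% of the mean of the male control libraries, and also Xist at 3.17% and 9.86% of the level in the female control library, against 0.0449% and 0.0575% in the male controls, so results are also given without null 1 and null 3. Cardiomyocyte markers summed to between 75334 and 76944 CPM in null libraries and between 73192 and 79003 CPM in control libraries, with none of the 10 at 0, as the tissue label has it. Of the cell type markers tested, the cardiomyocyte marker Actc1 (1 of 10) and 5 of 10 endothelial markers fell in null, while 3 of 10 fibroblast and 5 of 10 macrophage markers rose. Over all genes tested, 2.98% were lower and 2.43% higher in null at the same adjusted p under 0.05.

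Late cell cycle promoters are known for CCAAT boxes, bound by the factor NF-Y, and for the cell cycle genes homology region, whose common core reads TTTGAA and is bound by the DREAM and MuvB complexes. RefSeq (GRCm38.p6) gave 45 windows, from 250 bases before to 50 bases after a gene's start, for 41 of the 47 genes, 4 of which had 2 windows. CCAAT, read on both strands, was present in 34 of the 45 windows (75.6%), against 37.1% of the 14706 windows of genes tested and 37.4% of all 32851 windows of that length. TTTGAA, read on both strands, was present in 33 of the 45 (73.3%), against 12.1% of windows of genes tested and 17.9% of all windows. Neither motif contains the other, though their end bases may be shared, and 27 of the 45 windows (60.0%) held both, against 4.79% of windows of genes tested. Among 141 windows of 119 other mitosis genes, 51.1% held CCAAT, 32.6% TTTGAA and 20.6% both. Birc5, Mad2l1, Nuf2, Nusap1 and Pttg1 had neither in these windows. The Pttg1 window lies inside the gene as GENCODE places it, and that of Mad2l1 ends before its GENCODE start. Motifs at those GENCODE starts could have been missed. The 200 bases before the start of 5 genes are printed because these genes stand for proliferation markers, the entry kinase, anaphase and the spindle. Their RNA varied together between libraries, and so did that of members with neither motif. Pearson's r with the mean of the other members was between 0.710 (Mki67) and 0.911 (Kif11) for the printed genes. It was between 0.699 (Pttg1) and 0.922 (Birc5) for members with neither motif. A link between motifs and this variation was not tested. Capitals mark CCAAT or its complement ATTGG, and TTTGAA or its complement TTCAAA.

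The Mki67 sequence (chr7:135716380-135716579, minus strand) holds 3 CCAAT and 2 TTTGAA motifs, and that of Top2a (chr11:99024190-99024389, minus strand) holds 5 and 2. The Cdk1 sequence (chr10:69352913-69353112, minus strand) holds 2 of each, that of Cdc20 (chr4:118437344-118437543, minus strand) holds 2 CCAAT and 1 TTTGAA, and that of Kif11 (chr19:37376182-37376381, plus strand) holds 1 of each.
Mki67: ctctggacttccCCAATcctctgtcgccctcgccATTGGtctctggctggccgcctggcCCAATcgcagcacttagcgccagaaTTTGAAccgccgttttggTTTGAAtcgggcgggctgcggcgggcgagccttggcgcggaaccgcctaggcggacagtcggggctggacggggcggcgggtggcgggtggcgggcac
Top2a: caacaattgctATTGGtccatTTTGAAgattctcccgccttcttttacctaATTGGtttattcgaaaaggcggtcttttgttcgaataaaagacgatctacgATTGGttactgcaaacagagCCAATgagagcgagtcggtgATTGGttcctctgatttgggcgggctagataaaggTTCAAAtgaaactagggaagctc
Cdk1: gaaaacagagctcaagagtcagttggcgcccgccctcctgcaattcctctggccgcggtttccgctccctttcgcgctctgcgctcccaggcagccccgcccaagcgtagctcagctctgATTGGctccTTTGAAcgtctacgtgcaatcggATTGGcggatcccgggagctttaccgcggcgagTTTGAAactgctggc
Cdc20: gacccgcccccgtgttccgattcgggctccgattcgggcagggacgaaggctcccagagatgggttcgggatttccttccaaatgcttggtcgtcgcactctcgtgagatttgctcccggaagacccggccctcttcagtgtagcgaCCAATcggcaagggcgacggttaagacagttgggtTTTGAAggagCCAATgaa
Kif11: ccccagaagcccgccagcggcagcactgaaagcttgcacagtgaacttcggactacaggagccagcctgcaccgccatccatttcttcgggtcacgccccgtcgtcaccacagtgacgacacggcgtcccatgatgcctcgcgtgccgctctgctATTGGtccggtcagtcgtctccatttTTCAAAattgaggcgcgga

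None of the 47 genes passed the test between null and control ventricles. At an adjusted p under 0.05, edgeR's quasi-likelihood test with Benjamini-Hochberg adjustment over all genes called 0 of 47, against 801 of 14815 genes (5.41%), of which 2.43% of genes tested were higher and 2.98% lower in null. DESeq2 and limma-voom also called 0 of the 47, and so did adjusted p under 0.1, which 9.65% of all genes passed. At an unadjusted p under 0.05, 3 of the 47 passed (6.38%), with Aurkb and Mki67 lower and Cenpf higher, against 20.5% of all genes (10.9% lower, 9.55% higher). The groups did not overlap for 3 of the 47 (6.38%), Mki67 and Aurkb lower and Cks2 higher in null, against 26.6% of all genes (13.9% lower, 12.7% higher).

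The estimates were small. The median log2 fold change, null over control, was -0.025 over the 47 genes and -0.0040 over all genes tested, and the median size of the change regardless of sign was 0.043 in the 47 and 0.089 in all genes. The 47 had a median level of 70.8 CPM in null, against 23.4 CPM over all genes tested. Over the 8078 genes tested within the CPM range of the members without Cks2, the median size was 0.062. The log2 fold change was below 0 for 34 of the 47, against 51.2% of all genes. Individual values ran between -0.13 (Aurkb) and 0.26 (Cks2). The 95% interval of the fold lay within 1.2-fold of no change in either direction for 44 of 47 genes, the exceptions being Cks2, Cenpf and Cdca3. The same held for 7348 of 14815 genes tested, and for 6302 of the 8078 within the CPM range of the members without Cks2.

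**Figure D1:**
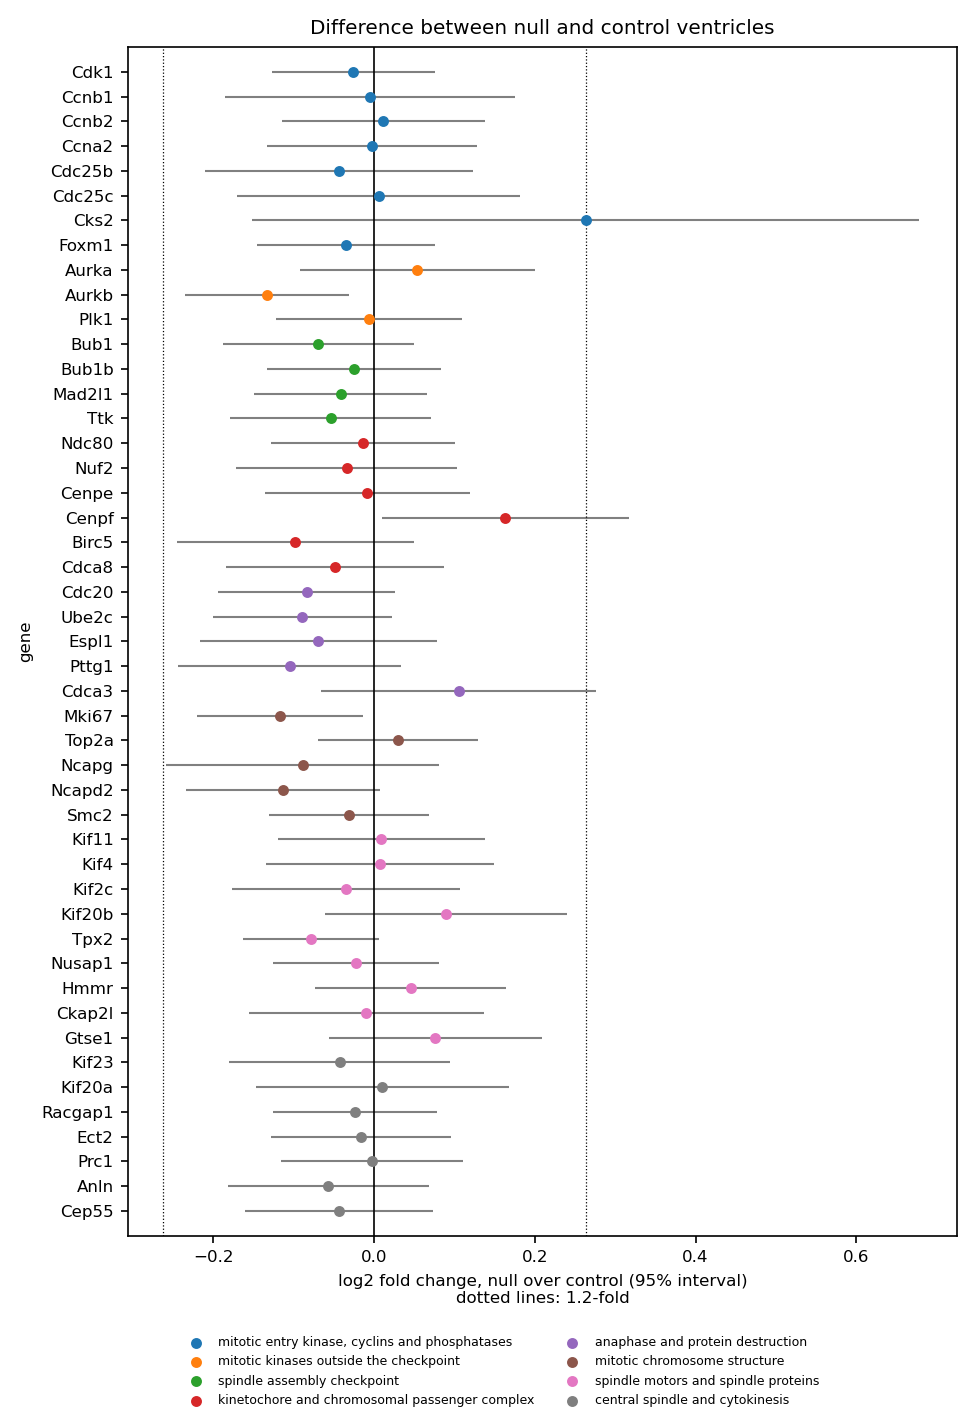
Log2 fold change, null over control (x axis), with its 95% interval for each of the 47 genes (y axis, coloured by role); dotted lines mark a 1.2-fold change. The points lie between -0.13 (Aurkb) and 0.26 (Cks2), and 44 of the 47 intervals lie inside the dotted lines.

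Summed over the 47 genes, RNA was 4071, 4560 and 4380 CPM in null libraries, against 4260, 4559 and 4406 CPM in control libraries. The means were 4337 ± 247 CPM in null and 4408 ± 149 CPM in control (SD, n = 3 each), a ratio of 0.984, and the groups overlapped. The 47 genes took 0.433 ± 0.0261% of counts in null and 0.441 ± 0.0173% in control libraries (SD, n = 3 each). Null 1 was the lowest library and null 2 and control 2 were the highest, level with each other.

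None of the 8 genes that start mitosis passed the test, and the groups overlapped for Cdk1, Ccnb1 and Foxm1. Cdk1 (chr10:69335146-69352938, minus strand, mm10), the kinase that drives entry, was at 110.1, 122 and 119 CPM in null libraries, against 117, 124 and 115 CPM in control libraries. The groups overlapped, with means of 117 ± 5.92 CPM in null and 119 ± 4.47 CPM in control (SD, n = 3 each) and a log2 fold change of -0.026 (95% interval -0.13 to 0.076, adjusted p = 0.806). Its partner Ccnb1, cyclin B1, was at 29.9, 33.3 and 30.8 CPM in null and 27.8, 34.5 and 32.2 CPM in control libraries. The control libraries spanned all the null values of Ccnb1, and the log2 fold change was -0.0051 (95% interval -0.19 to 0.18). Foxm1, a transcription factor that activates late cell cycle genes, was at 70.5, 72.0 and 74.3 CPM in null libraries, against 69.7, 78.3 and 74.3 CPM in control libraries, again with overlap (log2 fold change -0.035, 95% interval -0.15 to 0.075).

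Cks2, a small subunit of cyclin-dependent kinases, was the least abundant of the 47 and had the highest log2 fold change. It had 53, 45 and 58 counts in null libraries and 49, 40 and 38 counts in control libraries, or 1.32, 1.24 and 1.40 CPM in null against 1.11, 1.11 and 1.08 CPM in control. The groups did not overlap on the CPM scale, but the counts are low and the interval is wide (log2 fold change 0.26, 95% interval -0.15 to 0.68, adjusted p = 0.476). Annotated near-identical copies match 34.7% of the Cks2 transcript, so reads could have been split among them. Every other member had at least 610 counts in each library. Ccnb2 and Ccna2, further mitotic cyclins, and Cdc25b and Cdc25c, phosphatases that switch on Cdk1, had log2 fold changes of 0.012, -0.0024, -0.044 and 0.0056. Over all 8 entry genes, 5 were below 0, 3 above, and the sum was 510, 569 and 557 CPM in null libraries, against 529, 576 and 547 CPM in control libraries.

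Of the 3 mitotic kinases outside the checkpoint, Aurkb had the lowest log2 fold change of all 47 genes. Aurkb (chr11:69045647-69051664, plus strand, mm10), the kinase of the chromosomal passenger complex, was at 37.6, 39.0 and 39.2 CPM in null libraries, against 41.2, 43.9 and 41.8 CPM in control libraries. Every null library was below every control library, with means of 38.6 ± 0.866 CPM in null and 42.3 ± 1.46 CPM in control (SD, n = 3 each). The 1.10-fold lower level in null (log2 fold change -0.13 ± 0.046 SE, unadjusted p under 0.05) did not pass adjustment over all genes (adjusted p = 0.130, edgeR's quasi-likelihood test). Across the 15 other fits it stayed below 0, between -0.15 and -0.11, with adjusted p between 0.121 and 0.678. Plk1, which acts in centrosome maturation and entry, was at 48.4, 53.2 and 52.0 CPM in null and 50.4, 54.0 and 49.9 CPM in control libraries, with overlap and a log2 fold change of -0.0064 (95% interval -0.12 to 0.11). Aurka, the spindle pole kinase, had a log2 fold change of 0.054.

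All 4 spindle checkpoint genes had log2 fold changes slightly below 0, and none passed the test. Bub1, the kinase that recruits checkpoint proteins to kinetochores, was at 64.5, 70.5 and 65.4 CPM in null libraries, against 65.8, 72.0 and 72.5 CPM in control libraries. The groups overlapped (log2 fold change -0.070, 95% interval -0.19 to 0.049, adjusted p = 0.517). Bub1b and Mad2l1, parts of the inhibitor that restrains Cdc20, and Ttk, the kinase upstream of them, had log2 fold changes of -0.025, -0.042 and -0.054. The 4 genes summed to 238, 262 and 251 CPM in null libraries and to 249, 267 and 258 CPM in control libraries, a ratio of means of 0.970.

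Among 6 kinetochore and chromosomal passenger genes, Cenpf was the only member of the 47 whose 95% interval lay above 0. Cenpf (chr1:189640606-189688086, minus strand, mm10), a large protein of the outer kinetochore and nuclear envelope, was at 192, 230.4 and 219 CPM in null libraries, against 182, 199 and 193 CPM in control libraries. Null 1 lay within the control range and null 2 and null 3 lay above it. The means were 214 ± 19.8 CPM in null and 191 ± 8.83 CPM in control (SD, n = 3 each), and the log2 fold change of 0.16 ± 0.067 SE, at an unadjusted p under 0.05, did not pass adjustment (adjusted p = 0.219, edgeR's quasi-likelihood test). Its adjusted p ranged between 0.0517 and 0.483 over 15 other fits. The lowest came without null 1, where the log2 fold change was 0.24; without null 2 it was 0.11. Ndc80, which grips microtubules, was at 29.2, 31.1 and 29.6 CPM in null and 29.7, 31.6 and 29.4 CPM in control libraries, nearly the same range (log2 fold change -0.014, 95% interval -0.13 to 0.10). Birc5, the passenger protein survivin, was at 58.8, 68.9 and 65.2 CPM in null libraries, against 64.5, 72.8 and 69.1 CPM in control libraries. These groups overlapped, with a log2 fold change of -0.098 (95% interval -0.25 to 0.050). Nuf2, the partner of Ndc80, the kinetochore motor Cenpe and the passenger subunit Cdca8 had log2 fold changes of -0.034, -0.0087 and -0.048.

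The 5 anaphase genes had a ratio of summed levels, null over control, of 0.963, and none passed the test. Cdc20 (chr4:118432901-118437352, minus strand, mm10), the activator of the anaphase-promoting complex, was at 75.6, 84.5 and 78.1 CPM in null libraries, against 82.6, 87.3 and 82.5 CPM in control libraries. Null 2 lay among the controls and the other null libraries below them (log2 fold change -0.084, 95% interval -0.19 to 0.026, adjusted p = 0.378). Ube2c, the ubiquitin-conjugating enzyme of that complex, was at 79.1, 90.2 and 83.1 CPM in null and 90.4, 90.3 and 87.7 CPM in control libraries, with the same arrangement (log2 fold change -0.089, 95% interval -0.20 to 0.022). Exons of Ube2c and of the muscle gene Tnnc2 overlap by 592 bases on opposite strands, and whether counting used strand is not given in the sources used here. Pttg1, securin, which inhibits separase, was at 45.1, 50.5 and 43.8 CPM in null libraries, against 47.6, 52.4 and 50.01 CPM in control libraries, with overlap (log2 fold change -0.11, 95% interval -0.24 to 0.034). Cdca3, a protein that helps mitotic entry and is itself destroyed through the complex, went the other way, at 52.5, 61.1 and 57.5 CPM in null and 49.6, 58.5 and 51.1 CPM in control libraries. The groups overlapped (log2 fold change 0.10, 95% interval -0.066 to 0.28). Espl1, separase, had a log2 fold change of -0.069.

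The chromosome structure genes include the most abundant members, and the usual proliferation markers Mki67 and Top2a had estimates of opposite sign. Mki67 (chr7:135689784-135716361, minus strand, mm10), the Ki-67 protein that coats mitotic chromosomes, had 17265, 17024 and 18697 counts in null libraries and 20702, 18065 and 17403 counts in control libraries. Scaled, it was at 429, 468 and 453 CPM in null, against 470.5, 502 and 493 CPM in control libraries. All null values lay below all control values, null 2 and control 1 being closest, with means of 450.1 ± 19.6 CPM in null and 488 ± 16.1 CPM in control (SD, n = 3 each). The 1.08-fold lower level (log2 fold change -0.12 ± 0.046 SE, unadjusted p under 0.05) did not pass adjustment (adjusted p = 0.184, edgeR's quasi-likelihood test). Top2a (chr11:98992943-99024189, minus strand, mm10), the topoisomerase that untangles sister chromatids, was at 405, 444 and 438 CPM in null libraries, against 417, 424 and 419.7 CPM in control libraries. The control values of Top2a fell inside the null range, and the log2 fold change was 0.030 (95% interval -0.070 to 0.13). Ncapd2, a condensin subunit, was at 128, 146 and 142 CPM in null and 151, 156 and 143 CPM in control libraries, overlapping through null 2 (log2 fold change -0.11, 95% interval -0.23 to 0.0071, adjusted p = 0.271). The condensin subunits Ncapg and Smc2 had log2 fold changes of -0.089 and -0.031, and the summed level of the 5 genes had a ratio of 0.962.

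**Figure D2:**
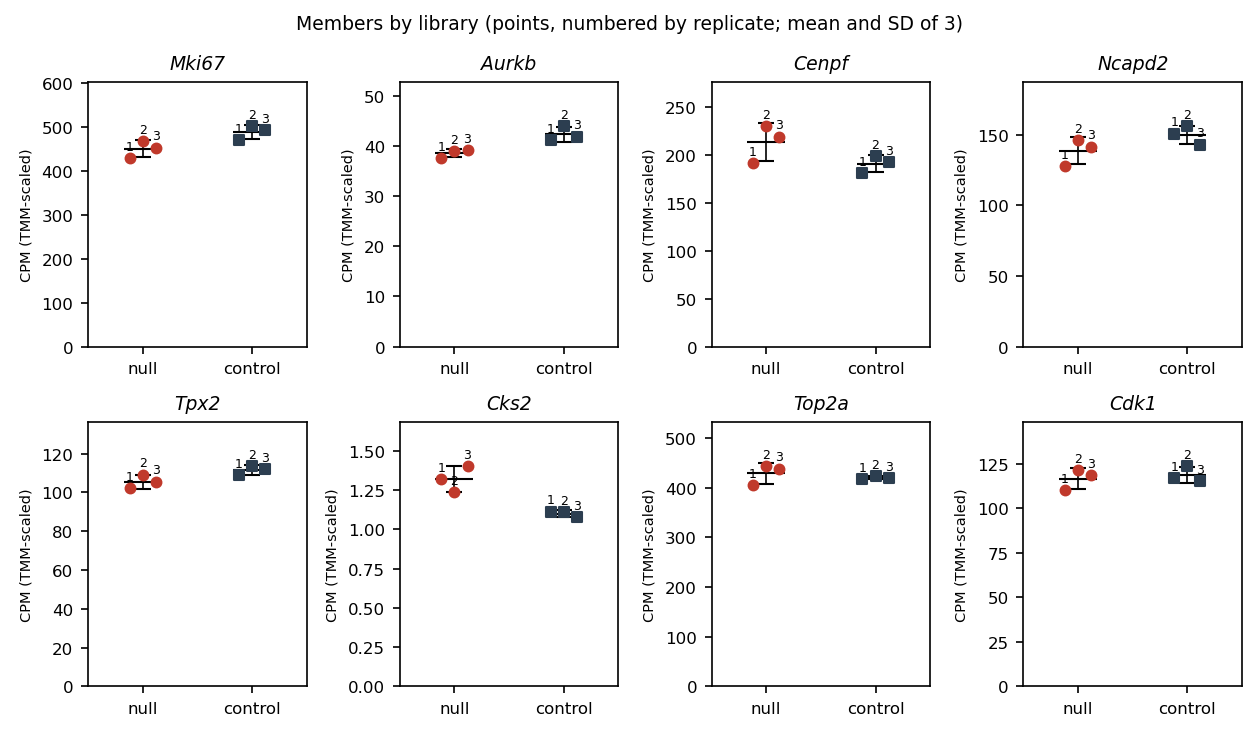
Normalised level in CPM (y axes) of 8 named genes in each library (points numbered by replicate), null left of control, with the mean and SD of each group. Null and control points of Mki67 and of Aurkb do not overlap, those of Cenpf overlap through null 1 at 192 CPM, and those of Cdk1 intermingle.

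Of the 9 spindle genes, 4 had log2 fold changes below 0 and 5 above, and none passed the test. Kif11 (chr19:37376403-37421859, plus strand, mm10), the motor that pushes spindle poles apart, was at 116, 134 and 128 CPM in null libraries, against 118, 128 and 129 CPM in control libraries. The groups overlapped in full (log2 fold change 0.0089, 95% interval -0.12 to 0.14). Kif20b was at 45.04, 54.3 and 48.8 CPM in null and 48.4, 45.6 and 45.2 CPM in control libraries, with null 1 below every control (log2 fold change 0.090, 95% interval -0.061 to 0.24). Tpx2, which activates Aurora A and nucleates spindle microtubules, was at 102, 109 and 105 CPM in null libraries, against 109, 114 and 112 CPM in control libraries, overlapping only through null 2 and control 1. Its log2 fold change was -0.079 (95% interval -0.16 to 0.0056, adjusted p = 0.274, edgeR's quasi-likelihood test). Of the others, Kif4, Hmmr and Gtse1 had values of 0.0076, 0.045 and 0.076, and Kif2c, Nusap1 and Ckap2l of -0.035, -0.023 and -0.0097. The 9 summed to 647, 733 and 689 CPM in null libraries and to 666, 709 and 693 CPM in control libraries, a ratio of means of 1.00.

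Of the 7 cytokinesis genes 6 had log2 fold changes below 0, and none passed the test. Kif23, the motor of the central spindle, was at 67.5, 81.0 and 72.9 CPM in null libraries, against 76.2, 77.0 and 74.9 CPM in control libraries. The null libraries lay on either side of the narrow control range (log2 fold change -0.043, 95% interval -0.18 to 0.094). Anln, anillin, the scaffold of the contractile ring, was at 165, 189 and 183 CPM in null and 176, 191 and 192 CPM in control libraries, with overlap (log2 fold change -0.057, 95% interval -0.18 to 0.068). Racgap1 and Ect2, which with Kif23 turn on RhoA at the cell equator, the microtubule bundler Prc1, the abscission protein Cep55 and the motor Kif20a had log2 fold changes of -0.024, -0.016, -0.0029, -0.044 and 0.010. Cytokinesis genes summed to 683, 764 and 732 CPM in null libraries, against 708, 767 and 745 CPM in control libraries.

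The 47 genes varied together between libraries. Null 1 held the lowest value of 35 of them and control 1 of a further 8, while null 2 held the highest of 17 and control 2 of 22. By comparison, 17.9% of all genes tested were lowest in null 1 and 17.5% were highest in control 2. Within the null group, null 1 was below null 2 for 46 of 47 genes, by a median of 0.16 on the log2 scale, and below null 3 for 44. Within the control group, control 1 was below control 2 for 44 of 47, by a median of 0.10. The median log2 fold change between groups was -0.025. It rests on 3 libraries a side, whereas these steps join the lowest and highest single library of a group by summed level. The steps therefore cannot be ranked against it.

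**Figure D3:**
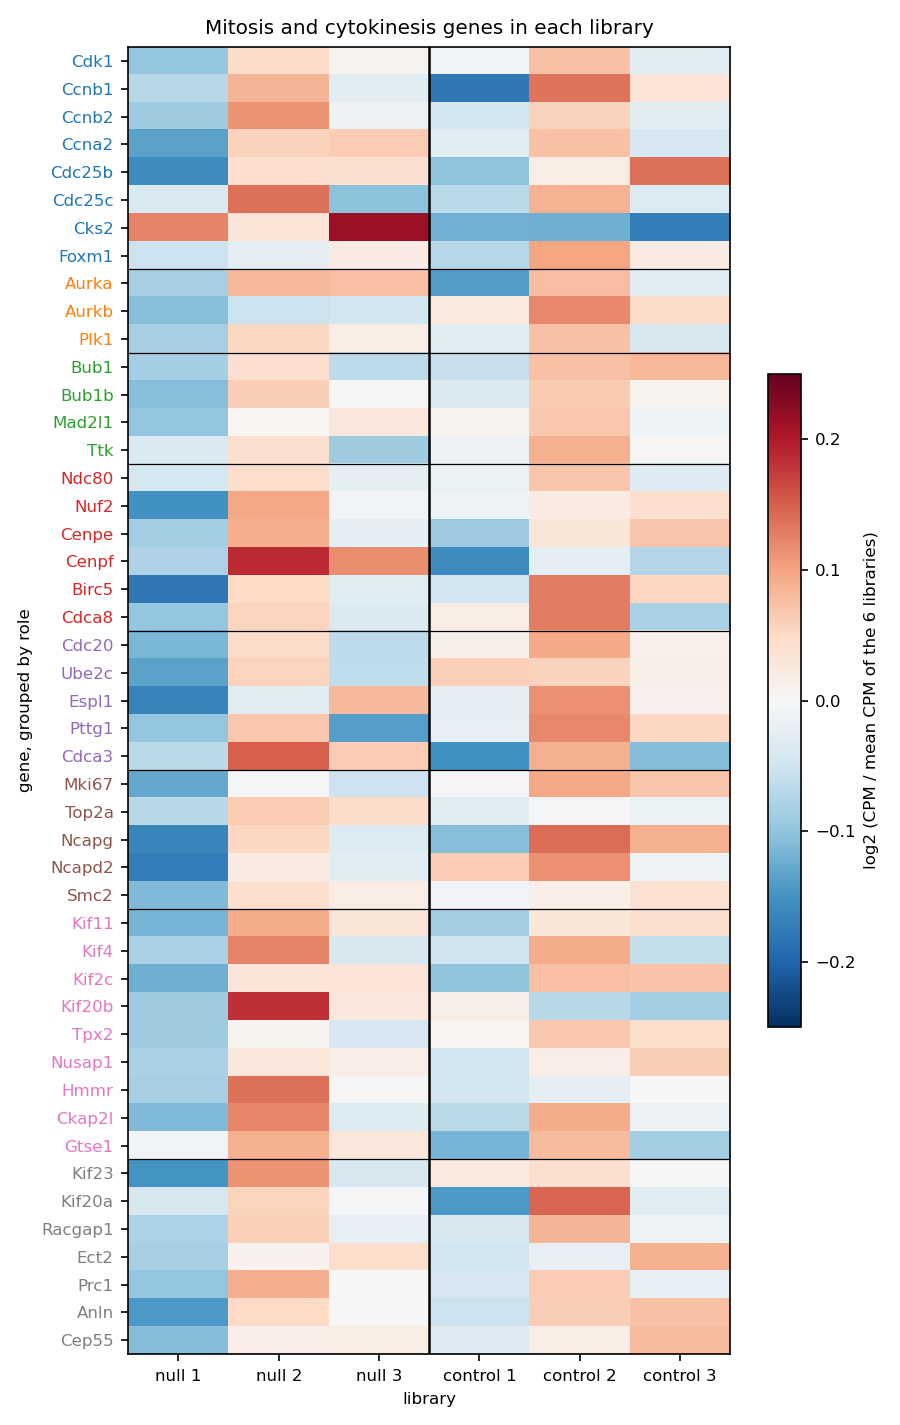
Log2 level of each of the 47 genes (rows, by role) in each library (columns, null left of control) relative to the gene's mean over the 6 libraries. Null 1 is below the mean for 46 genes, and null 2 and control 2 are above it for most.

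The coefficient of variation between libraries had a median of 6.29% in null and 4.47% in control libraries, and was larger in null for 33 of 47 genes. Pearson's r between pairs of the 47, over 6 libraries that share their scaling, had a median of 0.643 and was above 0 for 95% of 1081 pairs, as a description. Against the mean of the other members, 44 genes had r above 0.5, and Cks2 (-0.316), Kif20b (0.414) and Ect2 (0.491) were lowest. The sign count depended on null 1. Without that library 17 of 47 genes were below 0 and the median log2 fold change was 0.017, whereas without null 2 the count was 40 and the median -0.060. Without both null 1 and null 3, 8 genes were below 0 and the median was 0.038. This left null 2 alone, a female library by its Y-linked RNA (2.12% of the male control mean) and Xist (99.3% of the female control). It was set against controls of both sexes. Without null 1 and without null 2, 0 of 47 genes were called by edgeR's quasi-likelihood test, with 2 and 7 of them at an unadjusted p under 0.05.

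Null 1 also held the highest summed fibroblast and macrophage markers, and its place in those lists is given beside its low mitotic level. Fibroblast markers summed to 12544, 11461 and 11350.3 CPM in null libraries, against 9696, 9500 and 11233 CPM in control libraries, and 3 of 10 passed the test as higher (Col1a1, Pdgfra and Tcf21). Macrophage markers summed to 144, 132 and 116 CPM in null libraries, against 90.4, 93.5 and 105 CPM in control libraries, and 5 of 10 were higher. Endothelial markers summed to 1760.1, 1626 and 1633 CPM in null libraries and to 2008, 1809.5 and 1884 CPM in control libraries, and 5 of 10 were lower (Pecam1, Tek, Tie1, Egfl7 and Esam). Over all genes tested, 2.43% passed as higher and 2.98% as lower in null. None of these 30 markers was at 0 in all libraries. Erythroid markers, which mark blood carried over, summed to between 1207 and 1968 CPM in null libraries and between 1746 and 5075 CPM in control libraries, with Hbb-bs at 1207, 1008 and 697 CPM in null, against 934, 1646 and 2913 CPM in control libraries. Hepatocyte markers summed to between 40.6 and 44.7 CPM in null and between 21.3 and 57.8 CPM in control libraries, with Alb at 57, 20 and 125 counts in null libraries and 3, 12 and 322 counts in control libraries. The part of these cell type differences in the mitotic levels was not tested.

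Per length, in TPM (counts divided by length, then scaled to the same total in each library) computed from the counts and exon lengths, the most abundant members in null ventricles were Top2a, Mki67, Ccna2, Ccnb2 and Cdc20. Top2a was at 197 ± 10.7 TPM in null and 190 ± 2.03 TPM in control, and Mki67 at 185 ± 9.14 TPM in null and 198 ± 7.12 TPM in control (SD, n = 3 each). Ccna2 followed at 182 ± 14.6 TPM in null and 179 ± 7.45 TPM in control, Ccnb2 at 179 ± 13.8 TPM in null and 175 ± 6.67 TPM in control, and Cdc20 at 176 ± 11.3 TPM in null and 184 ± 5.58 TPM in control (SD, n = 3 each). The null values of these neighbours overlapped, but Top2a was above Mki67 in each null library (185, 205 and 201 TPM, against 176, 194 and 186 TPM). The order of members depends on the merged exon lengths used, and it was not tested. By counts, Mki67 was above Top2a in each library. Ube2c came next at 134 ± 9.80 TPM in null and 141 ± 1.41 TPM in control. At the low end were Ndc80 at 19.1 TPM in null and 19.0 TPM in control, Cdc25c at 14.9 TPM in null and 14.6 TPM in control, and Cks2 at 7.90 TPM in null and 6.49 TPM in control.

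**Figure D4:**
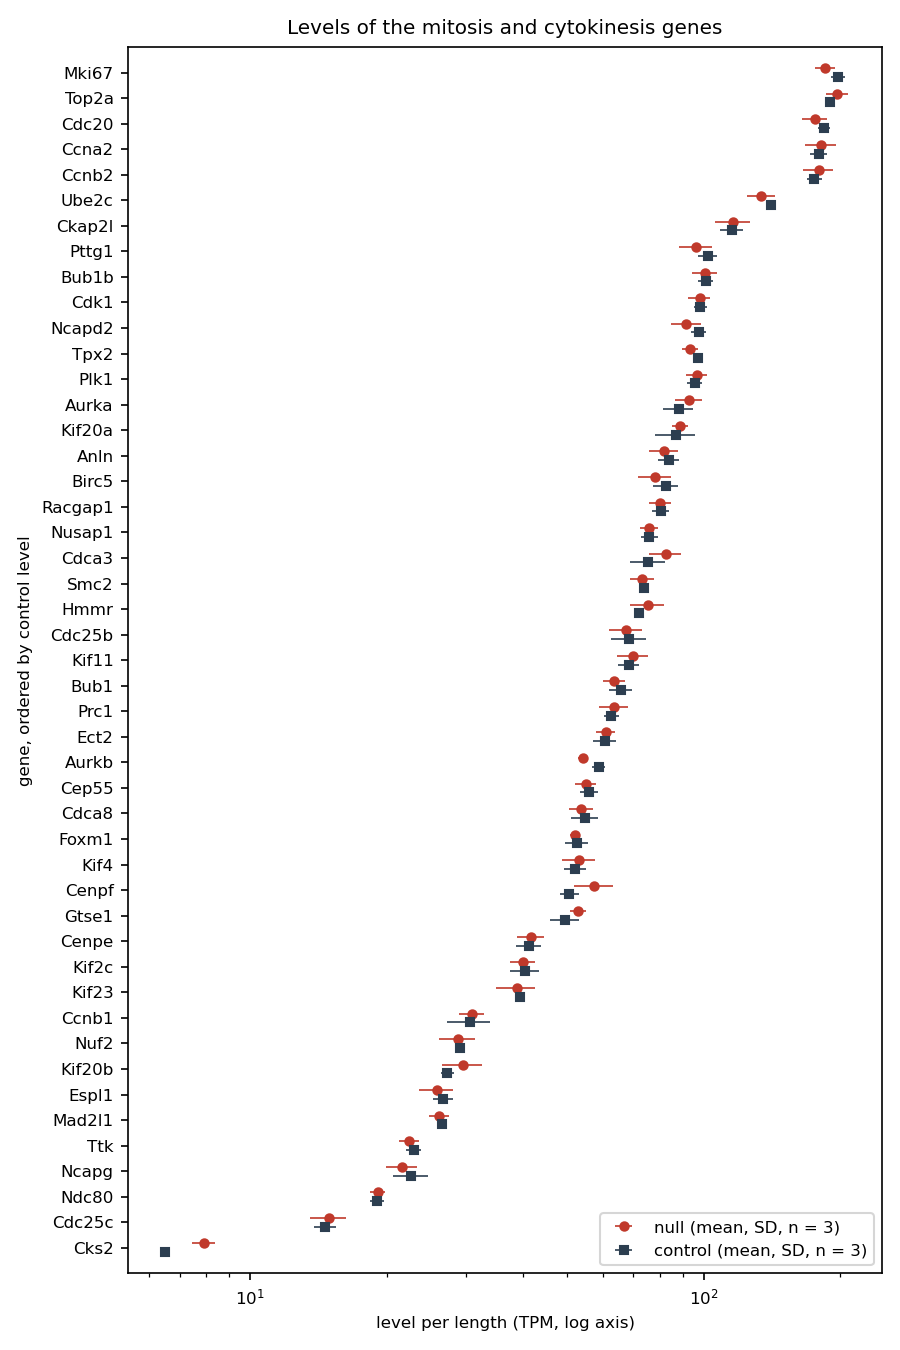
Level per length in TPM (log axis) of the 47 genes in null and control libraries (mean and SD, n = 3 each), ordered by control level. The top rows are Mki67, at 185 TPM in null and 198 TPM in control, and Top2a, at 197 TPM in null and 190 TPM in control, and the last is Cks2 at 7.90 TPM in null and 6.49 TPM in control.

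Among 148 other genes of mitosis, listed by role, 6 passed the test (4.05%, against 5.41% of all genes), 2 of them higher and 4 lower in null. These genes were listed with earlier results of these data known. The groups did not overlap for 36 (24.3%, against 26.6% of all genes), and 30 had an unadjusted p under 0.05 (20.3%, against 20.5% of all genes). The median log2 fold change was -0.039 and 98 of 148 were below 0. None of 30 kinetochore and checkpoint genes, 18 passenger, cohesion and condensin genes and 28 cytokinesis genes was called. Pkmyt1 was lower among 31 genes of entry, exit and the anaphase-promoting complex, Stil was lower among 23 spindle and centrosome genes, and 4 of 18 regulators of late cell cycle promoters were called, Rbl2 and Tfdp2 higher, Tfdp1 and Mybl2 lower.

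The called regulators belong to the DREAM and MuvB machinery, known to bind the TTTGAA element described above, or are partners of its E2F subunits. The other 14 of the 18 regulators were not called. Among these, Rbl1, E2f4 and E2f7 were lower in null without overlap, with log2 fold changes of -0.18, -0.10 and -0.24. Their adjusted p-values were 0.0847, 0.222 and 0.0737 (edgeR's quasi-likelihood test). The MuvB subunits Lin9, Lin37, Lin52, Lin54 and Rbbp4 overlapped, at -0.066, -0.048, 0.055, 0.036 and 0.054. Rbl2, a pocket protein that represses cell cycle genes in resting cells, was at 60.2, 59.9 and 60.4 CPM in null libraries, against 50.4, 50.5 and 51.3 CPM in control libraries. It was 1.19-fold higher in null, with no overlap (log2 fold change 0.25 ± 0.038 SE, adjusted p = 0.00943, edgeR's quasi-likelihood test). Mybl2, the activator that replaces the repressor on MuvB in dividing cells, was at 8.80, 9.13 and 10.3 CPM in null and 12.8, 13.1 and 11.0 CPM in control libraries, 1.31-fold lower in null (log2 fold change -0.39 ± 0.095 SE, adjusted p = 0.0461). Tfdp1 and Tfdp2 are partners of the E2F factors. Tfdp1 was at 37.5, 36.9 and 38.1 CPM in null libraries, against 42.2, 42.8 and 42.5 CPM in control libraries, 1.13-fold lower (adjusted p = 0.0356), and Tfdp2 was at 93.1, 91.7 and 89.1 CPM in null, against 83.6, 77.1 and 79.5 CPM in control libraries, 1.14-fold higher (adjusted p = 0.0323). Among the remaining calls, Stil, which is needed for centriole duplication, was at 21.1, 21.1 and 19.5 CPM in null libraries, against 27.3, 25.1 and 26.1 CPM in control libraries, 1.27-fold lower in null (adjusted p = 0.0132). Pkmyt1, the kinase that holds Cdk1 inactive before entry, was at 8.33, 7.73 and 9.27 CPM in null and 11.1, 11.3 and 10.4 CPM in control libraries, 1.29-fold lower in null (adjusted p = 0.0442). In all 6 the groups did not overlap.

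Several of these calls were lost in other fits, while the direction of each stayed the same. Rbl2 was called in 14 of 15 other fits and lost without both null 1 and null 3 (adjusted p = 0.263, edgeR's quasi-likelihood test), and Stil was lost there and without null 3 (adjusted p = 0.0549). Tfdp2 was lost on leaving out control 2 (0.0980), null 1 (0.107), null 2 (0.116) or null 3 (0.0711), these being adjusted p-values. Tfdp1, Pkmyt1 and Mybl2 were lost on leaving out any library other than control 3, with adjusted p between 0.0547 and 0.160. Over those 5 fits the log2 fold change was between -0.19 and -0.17 for Tfdp1, -0.44 and -0.31 for Pkmyt1, and -0.46 and -0.34 for Mybl2. With all libraries, Tfdp1 was also lost in DESeq2 (adjusted p = 0.0516), with a sex term (0.0513) and with a replicate block (0.0781). Tfdp2 was lost with the sex term (adjusted p = 0.0518), and Pkmyt1 and Mybl2 with the block (0.0911 and 0.103, edgeR's quasi-likelihood test).

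**Figure D5:**
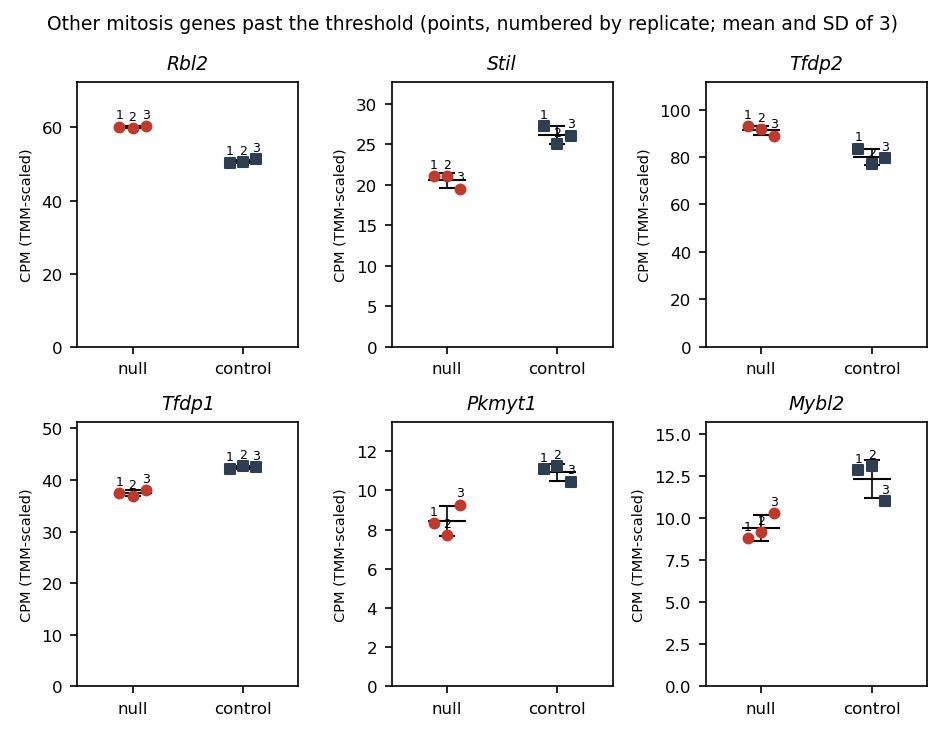
Normalised level in CPM (y axes) of the 6 called genes among 148 other mitosis genes in each library (points numbered by replicate), null left of control, with the mean and SD of each group. The null points of Rbl2 (59.9 to 60.4 CPM) lie above its control points (50.4 to 51.3 CPM), and those of Stil lie below.

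Counting sets further limits on some members. Besides Cks2, the transcripts of Ccnb1, Mki67 and Racgap1 had an annotated copy of at least 97% identity over at least 200 bases, matching 51.7%, 2.15% and 16.0% of the transcript. The Ccnb1 copy Ccnb1-ps held 30 counts summed over the 6 libraries, while Gm12856 and Gm8416, copies that match 51.95% and 51.8% of the Ccnb1 transcript, are not listed in the count tables used here, so reads shared with them could not be checked. Exons of 13 of the 47 genes overlap a gene on the opposite strand, the longest stretch being 1271 bases between Kif20a and Cdc23, and reads of such pairs cannot be told apart if strand was not used in counting. Exons of Foxm1, Top2a and Ncapd2 overlap other genes on the same strand, over up to 241, 122 and 472 bases. Reads there cannot be assigned by strand.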

How the data were processed

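RNA-seq of 3 null and 3 control ventricle libraries was read from the deposited tables of raw counts per gene, which the authors made with cutadapt 1.13, STAR, HTSeq 0.6.1p1 and mm10, as the submitters' processing notes name them; DESeq2 is also named there. The sources used here do not give each tool's role, the annotation or the strand setting. The library titles gave the groups. Identifiers were matched to GENCODE M21 symbols; 15 had none, and no mitochondrial gene had a count.

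Genes kept by edgeR's filterByExpr were fitted in edgeR 4.0.16 (R 4.3.3) with TMM factors, robust glmQLFit and a two-sided glmQLFTest on group alone. Genes with a Benjamini-Hochberg adjusted p under 0.05 over all genes tested were called. Standard errors came from the F statistic and 95% intervals from the fit's degrees of freedom. These procedures were tested on simulated data. TPM used the length of merged GENCODE exons, and near-identical copies were sought with blastn 2.17.0 at 97% identity over 200 bases. At these depths 3 counts equal 0.0677 to 0.0852 CPM, and intervals cover these libraries only. Promoter windows and sequences are RefSeq's (GRCm38.p6); 6 members had no window there.

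Library values and full statistics are given for the 8 members of smallest p, the 4 highest and 4 lowest log2 fold changes and representatives of each role, and for called genes of the other list. Members, lists and roles were chosen with earlier results of these data known. Alternatives were DESeq2 1.42.0 and its size factors, limma-voom (limma 3.58.1), library totals, other filters, a sex term, a replicate block, libraries left out and adjusted p under 0.1.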

Additional observations from a re-analysis of the deposited data

How the results depend on the processing

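The count of called genes among the 47 was 0 in all 16 alternatives, and between 1 and 7 of them had an unadjusted p under 0.05. Over all genes the count was 801, and 1430 at adjusted p under 0.1, 52 without both null 1 and null 3, and between 258 (without null 2) and 942 (without control 3) with 1 library left out. Of the 148 other mitosis genes 6 were called, and 10 at adjusted p under 0.1, 0 without both null 1 and null 3, and between 1 (without null 3) and 8 (without control 3) with 1 library left out. The median log2 fold change of the 47 ran between -0.060 and 0.017 with 1 library left out and was 0.038 without both null 1 and null 3, against -0.025; the ratio of summed levels ran between 0.958 and 1.01 and was 1.03, against 0.984. Of the 47, 33 changed sign in at least 1 alternative and 14 in none. Without both null 1 and null 3, 26 of the 47 changed sign, and of the 22 genes given with library values the log2 fold change turned positive for Anln (0.021), Birc5 (0.0020), Bub1 (0.0087), Ccnb1 (0.083), Cdc20 (0.0064), Cdk1 (0.033), Kif23 (0.092), Ndc80 (0.038), Plk1 (0.049), Pttg1 (0.016) and Ube2c (0.012). Sign changed for 17 of the 47 without null 1 and for 11 without control 2, and of the same 22 genes the values with 1 library left out crossed 0 for Ccnb1 (-0.088 to 0.065), Cdk1 (-0.056 to 0.015), Foxm1 (-0.077 to 0.0044), Kif11 (-0.037 to 0.066), Kif23 (-0.11 to 0.017), Ndc80 (-0.041 to 0.016) and Plk1 (-0.034 to 0.032). Limma-voom gave Ccnb1 0.0044. The fits without null 1 and null 3 assume that the lone null library, a female one, varies like the controls, which were of both sexes. The cause of these changes was not tested.

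Deviations from group means of same-numbered null and control libraries correlated at -0.039, -0.13 and -0.19 over 13171 genes. Differently numbered pairs ran between -0.064 (null 2 with control 1) and 0.15 (null 2 with control 3, both female). Deviations cancel out within a group, so these values depend on one another and cannot settle whether replicate numbers pair the libraries. With a replicate block, 0 of the 47 (lowest adjusted p 0.0875, Cenpf), 3 of the 148 and 570 of all genes were called by edgeR.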

Other observations

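The ratio of Mki67 to Top2a counts within a library was 1.06, 1.06 and 1.03 in null libraries, against 1.13, 1.18 and 1.17 in control libraries. The means were 1.05 ± 0.0148 in null and 1.16 ± 0.0300 in control (SD, n = 3 each), without overlap, and the exact two-sided permutation test gave p = 0.1, the smallest that 3 against 3 libraries allow. The ratio was chosen after its values were seen, so it is a description. A ratio within a library does not depend on scaling between libraries, and it does not show which of the genes differed.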
